A study of Mus musculus with 8 samples.

Results

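The Mmp, Adamts, Adamts-like and Timp families are the extracellular proteases that remodel connective tissue, their protease-free relatives and their natural inhibitors. Members were the probes whose gene name on the array is Mmp, Adamts, Adamtsl or Timp followed by a number and at most 1 letter. The array held 51 such genes on 68 probes, and 40 of them could be tested, out of 23830 genes and transcripts tested in all. Their RNA was measured in wire-injured carotid arteries of 4 miR-126+/+ and 4 miR-126-/- mice, 1 Agilent one-colour array per mouse. All 8 mice also lacked ApoE (ApoE-/-), were female and 6 weeks old per the labels, were of mixed genetic background and ate a western-type diet, and RNA was taken 14 days after the injury. Every mouse was injured, so the comparison is of genotypes within injured artery and not of injured with uninjured artery.

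Wire injury removes the endothelium and bruises the media, and the wall answers with a neointima of smooth muscle cells and matrix. Matrix metalloproteinases (MMPs) are zinc enzymes, mostly secreted as inactive proenzymes, which between them cut collagens, elastin and proteoglycans and so let cells migrate through the wall. ADAMTS enzymes are secreted relatives with thrombospondin repeats that cut versican, aggrecan and procollagens, and ADAMTS-like proteins keep the repeats but lack the catalytic domain. TIMPs bind the active site and hold these enzymes in check. MicroRNA miR-126 is enriched in endothelium and lies in an intron of the gene Egfl7.

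The deleted microRNA is shown for what differed between the genotypes. Its mature 3p strand, from RefSeq (GRCm38.p6, chr2:26591402-26591423, plus strand), is printed with the seed, bases 2 to 8, in capitals.
mmu-miR-126a-3p: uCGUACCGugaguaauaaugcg

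Among the members, 4 promoters held a stretch of 7 letters, TGAGTCA or its reverse complement TGACTCA, within the 250 bases before the transcription start. It is the classical AP-1 site, the motif bound by Fos and Jun proteins. These promoters are shown because all 4 belong to the same cluster of Mmp genes on chromosome 9, and 3 of the 4 genes read highest on the same array. The 110 bases before each start follow, from RefSeq (GRCm38.p6, plus strand), with the motif in capitals. They span chr9:7272404-7272513 for Mmp13, chr9:7347264-7347373 for Mmp12, chr9:7445712-7445821 for Mmp3 and chr9:7502232-7502341 for Mmp10.
Mmp13: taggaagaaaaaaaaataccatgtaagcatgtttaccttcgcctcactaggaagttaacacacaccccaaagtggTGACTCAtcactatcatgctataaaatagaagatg
Mmp12: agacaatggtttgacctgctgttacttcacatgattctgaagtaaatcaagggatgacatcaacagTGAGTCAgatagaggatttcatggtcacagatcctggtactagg
Mmp3: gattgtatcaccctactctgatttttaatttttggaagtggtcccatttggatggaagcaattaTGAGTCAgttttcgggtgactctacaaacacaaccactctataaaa
Mmp10: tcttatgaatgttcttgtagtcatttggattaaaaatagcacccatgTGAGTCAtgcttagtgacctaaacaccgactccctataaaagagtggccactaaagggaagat

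The motif began 35, 44, 46 and 63 bases before the start in Mmp13, Mmp12, Mmp3 and Mmp10. Mmp12 has 2 promoter entries, and the match is in 1 of them. Of the 40 tested members, 26 had a promoter in the table, and 4 of these 26 held the motif, beside 4.46% of all 32851 promoters searched over the same 250 bases. The motif was chosen with the members' values known. A match is a description of letters and not of binding.

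Values below are log2 processed signals after division by the 75th percentile of each array, so 0 is the brightness of a probe at that percentile. Each gene is read by its brightest probe, and levels are compared only within a gene. A difference is miR-126-/- minus miR-126+/+ with its standard error (SE) from limma, 4 mice per genotype. P-values are two-sided, and the Benjamini-Hochberg adjustment covers all 23830 genes, with a threshold of 0.05. The 4 values of a genotype are given in the order of replicates 1 to 4, which are separate mice.

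The arrays were of broadly like quality. Their 75th percentiles ran from 518 to 736 intensity units, and 55.9% to 61.5% of the 55681 probes were well above background. On every array 0 spots were saturated, and arrays correlated at 0.974 to 0.990. Both low ends, 518 and 55.9%, were those of array miR-126+/+ 3, the dimmest by these measures. Array miR-126-/- 4 had the most outlier spots, 216, and a dim area. The part of these array differences in the values below was not tested. The 8 arrays shared 1 slide, on which each genotype filled a row of its own, and the effects of row and genotype cannot be told apart. No probe of miR-126 itself was used, and the Egfl7 probe is not known to lie in a deleted part, so it does not check the labels. Smooth muscle markers were all detected (8 of 8 tested), and so were endothelial markers (8 of 8).

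No member passed the test over all genes (0 of 40 in limma, beside 23 of 23830 genes, 0.0965%). An unadjusted p under 0.05 was reached by 2 of 40, beside 10.2% of all genes, and 2 of 40 had genotypes that did not overlap, beside 6.29% of all genes. Both counts are the same pair, Adamts9, whose miR-126-/- values were all higher, and Adamtsl2, whose miR-126-/- values were all lower. These shares lay below those of all genes. In miR-126-/- arteries 17 of the 40 members were higher and 23 lower, with a median of -0.07 beside 0.0076 for all genes. The median size of the difference, whatever its sign, was 0.196 log2 units for members and 0.136 for all genes. A difference over 0.5 log2 units was seen in 3 members and one over 1 log2 unit in 1, while 30 members lay under 0.3.

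**Figure D1:**
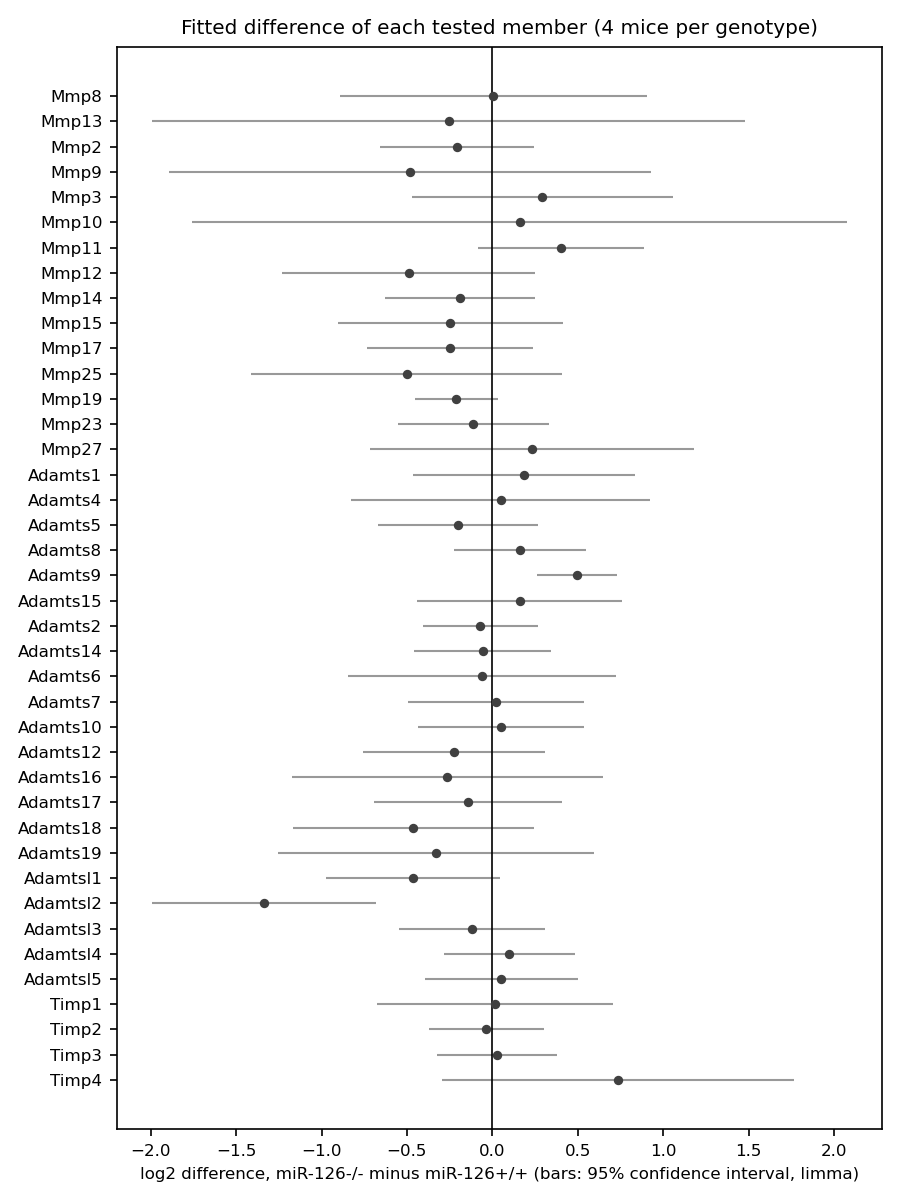
Fitted log2 difference, miR-126-/- minus miR-126+/+, of the 40 tested members in order of role, with 95% confidence intervals from limma (4 mice per genotype). The intervals of Adamts9 and Adamtsl2 do not reach 0, and those of Mmp13, Mmp9 and Mmp10 are the widest.

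The 11 members that could not be tested were Mmp1a, Mmp1b, Mmp7, Mmp16, Mmp20, Mmp21, Mmp24, Mmp28, Adamts3, Adamts13 and Adamts20. A gene entered if 3 or 4 arrays of either genotype showed its probe well above background. Of the 11, 5 were above background on 0 arrays and 6 on 1 to 4 arrays. Just inside this limit were Adamts19 (3 miR-126+/+ and 3 miR-126-/- arrays), Mmp10 (3 and 4) and Adamts18 (4 and 2), and just outside it Mmp24 (2 and 2), Mmp28 (2 and 0) and Adamts3 (1 and 1). The other 37 tested members were above background on all 8 arrays. By family, 15 of 23 Mmp, 16 of 19 Adamts, 5 of 5 Adamts-like and 4 of 4 Timp genes were tested.

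Array miR-126+/+ 3 stood apart in these families before any genotype comparison. It held the highest of the 8 values for 17 of 40 members, beside 29.2% of all genes. It lay more than 0.5 log2 units above every other array for 9 of 40 members, beside 2.59% of all genes, and more than 1 log2 unit above for 4 of 40, beside 0.52% of all genes. The margins were 1.86 for Mmp13, 1.68 for Mmp9, 1.42 for Mmp25 and 1.07 for Adamts4, then 0.97 for Mmp8, 0.96 for Mmp10, 0.65 for Mmp14, 0.57 for Timp1 and 0.52 for Adamts12. With quantile normalization the first 4 margins were 1.77, 1.64, 1.45 and 1.02, and 15 of 40 members were highest there, beside 23.1% of all genes. These genes were picked by their values, so the counts are a description. The mean of the macrophage markers (8 of 8 tested, each gene centred over the arrays) was highest on this array at 0.39, against -0.22 to 0.27 on the others. Neutrophil markers (7 of 8 tested) stood at 0.13 there, within the range of -0.36 to 0.37 on the others. Nerve and Schwann cell markers (8 of 8 tested) were lowest there at -1.13, against -0.27 to 0.66 on the others. The part of these cells in the pattern was not tested, and in whole tissue more cells of a type and more RNA per cell cannot be told apart.

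**Figure D2:**
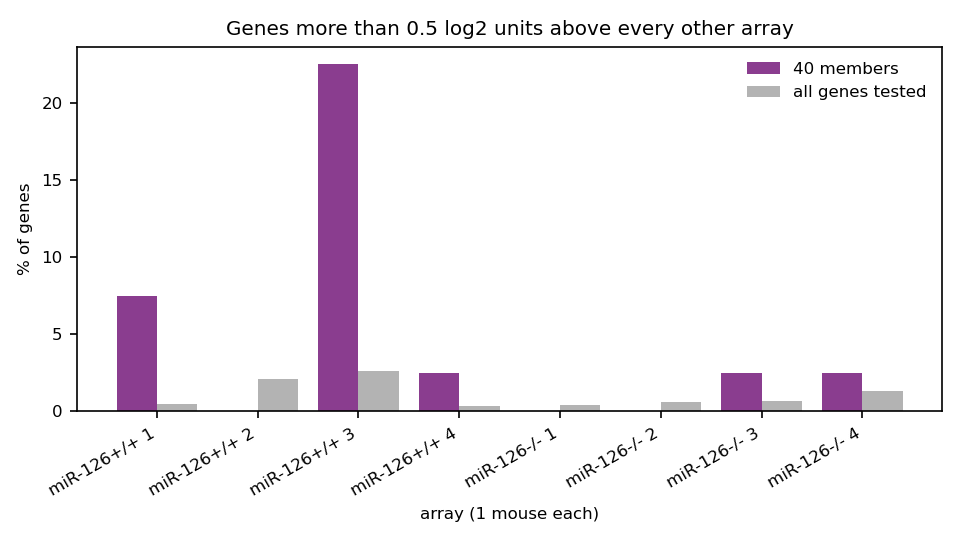
Share of genes, in percent, that read more than 0.5 log2 units above every other array, for each of the 8 arrays (1 mouse each), for the 40 members and for all genes tested. Array miR-126+/+ 3 is highest in members, at 9 of 40, beside 2.59% of all genes.

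Much of the spread among miR-126+/+ mice came with the same array. It was picked by its high member values, so the counts without it are a description. The SD was larger among miR-126+/+ than among miR-126-/- mice for 32 of 40 members (80%, beside 63.7% of all genes). Without miR-126+/+ 3 this count was 20 of 40, beside 51.2% of all genes. Without that array members were also split evenly, 20 higher and 20 lower, and 0 of 40 passed. An unadjusted p under 0.05 was then reached by 6 members, namely Adamts4, Adamts9, Adamtsl2, Mmp17, Mmp3 and Mmp8, beside 10.6% of all genes in that setting. In this way Adamts4, Mmp3 and Mmp8 lost their highest value over all arrays, and Mmp17 its lowest. Leaving out some single array, not always this one, turned the sign or moved the difference by over 1.5 times for 23 of the 28 members given by mouse under the naming rule. The exceptions were Adamts9, Adamtsl1, Adamtsl2, Mmp11 and Mmp19. The share of all genes moved in this way is not given here, so the count of 23 cannot be read as particular to these families.

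**Figure D3:**
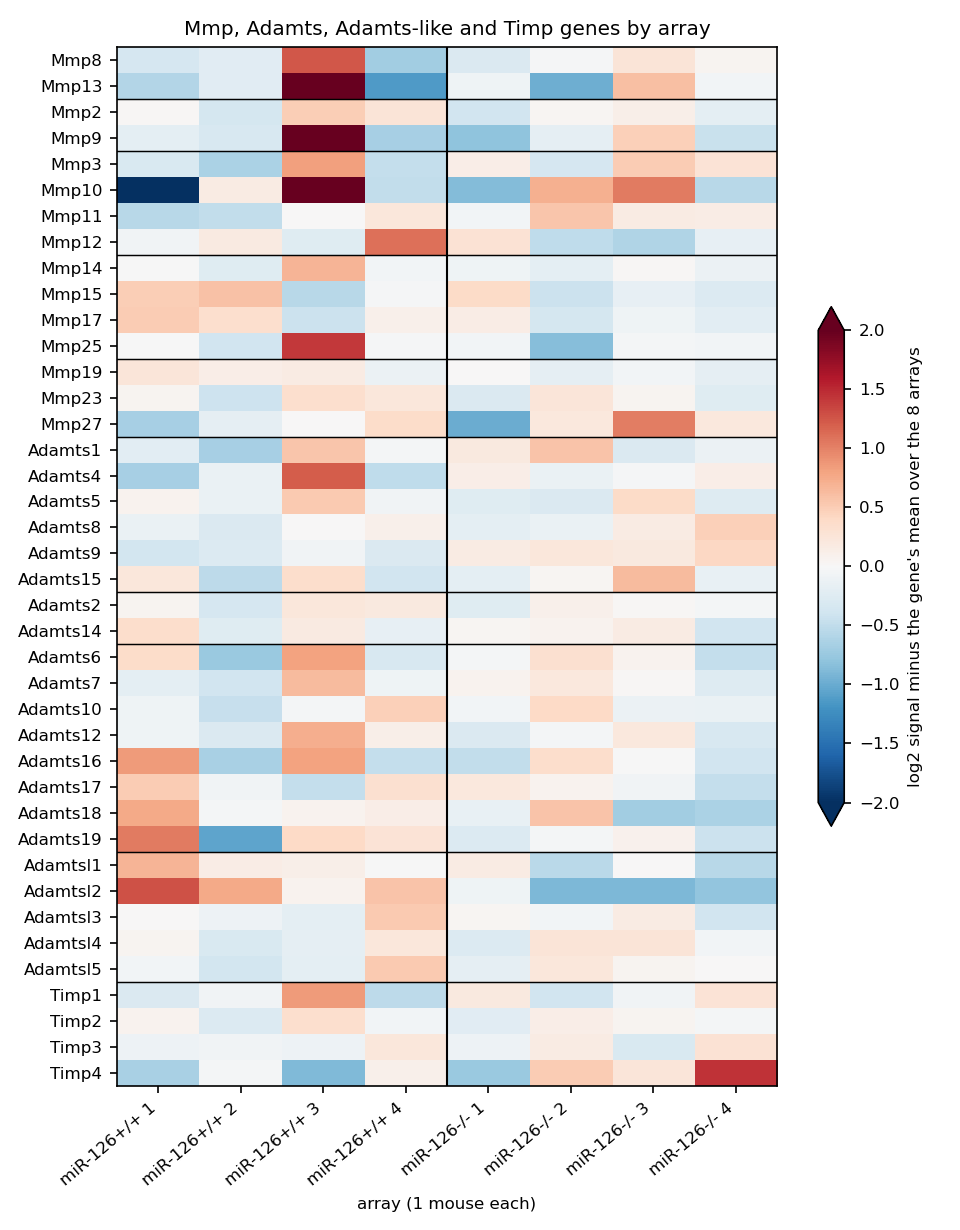
Log2 signal of each of the 40 tested members on each array, minus the gene's mean over the 8 arrays, in order of role (horizontal lines separate roles, the vertical line separates genotypes; the colour scale ends at -2 and 2). Mmp13, Mmp9, Mmp10, Mmp25, Mmp8 and Adamts4 are darkest red on array miR-126+/+ 3.

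The collagenases cut intact fibrillar collagen. Mmp13, the main interstitial collagenase of mice, read 1.69, 2.06, 4.74 and 1.16 in miR-126+/+ arteries and 2.19, 1.31, 2.88 and 2.23 in miR-126-/- arteries. The third miR-126+/+ mouse was far above the rest, and the other values overlapped. The difference was -0.26 ± 0.75 (SE), and its sign was not stable. It was 0.52 ± 0.38 without miR-126+/+ 3, 0.03 without miR-126-/- 2, 0.09 with array weights and 1.05 with the mean of the adipocyte markers as a covariate. Mmp8, the collagenase stored in neutrophil granules, read -1.66, -1.54, -0.09 and -2.02 against -1.61, -1.34, -1.06 and -1.27. Its genotypes overlapped and differed by 0.0063 ± 0.39 (adjusted p = 0.998 in limma). Without the third miR-126+/+ mouse the Mmp8 difference was 0.42 ± 0.17 (adjusted p = 0.448).

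The gelatinases cut denatured collagen and basement membrane. Mmp9, the gelatinase made by leukocytes and activated smooth muscle, read -0.46, -0.58, 1.89 and -0.92 in miR-126+/+ arteries and -1.07, -0.44, 0.21 and -0.70 in miR-126-/- arteries. The third mouse of each genotype was the highest, and the groups overlapped. The difference was -0.48 ± 0.61, and 0.15 ± 0.30 without miR-126+/+ 3. Mmp2, made constitutively by mesenchymal cells, read 5.38, 5.02, 5.85 and 5.62 against 4.99, 5.41, 5.49 and 5.17, overlapping values that differed by -0.21 ± 0.20. Without miR-126+/+ 3 the difference was -0.08 and without miR-126+/+ 2 it was -0.36.

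Stromelysins cut a wide range of matrix proteins and activate other MMPs, and MMP-12 is the elastase of macrophages. Mmp3, stromelysin-1, read 5.03, 4.70, 6.15 and 4.85 in miR-126+/+ arteries and 5.46, 5.0, 5.84 and 5.60 in miR-126-/- arteries. The third miR-126+/+ mouse again held the highest value, while the other 3 lay near or below the lowest miR-126-/- mouse. The difference was 0.29 ± 0.33 (adjusted p = 0.835) and 0.62 ± 0.20 (adjusted p = 0.368) without miR-126+/+ 3. Mmp12 read 2.10, 2.34, 1.93 and 3.27 against 2.46, 1.66, 1.57 and 2.0, with miR-126+/+ 4 on top and the groups overlapping, a difference of -0.49 ± 0.32. Without miR-126+/+ 4 it was -0.20, and a second, dimmer Mmp12 probe gave -0.0089 ± 0.35. Mmp11, stromelysin-3, which is active on leaving the cell and is known from stromal remodelling, read 1.54, 1.60, 2.10 and 2.32 against 2.04, 2.64, 2.25 and 2.24. Its groups overlapped, and the difference was 0.40 ± 0.21 (adjusted p = 0.593). The spot of this probe lies in a dim area of array miR-126-/- 4, where it read 2.24. A second Mmp11 probe outside that area gave 0.32 ± 0.21. Mmp10, stromelysin-2, whose per-mouse values were chosen after being seen, read -4.79, -2.63, -0.78 and -3.28 against -3.67, -2.08, -1.75 and -3.35, overlapping values that differed by 0.16 ± 0.83.

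All 4 tested membrane-bound MMPs were lower in miR-126-/- arteries, with a median difference of -0.25, and none passed. With the adipocyte covariate 2 of the 4 were higher, and without miR-126+/+ 3 it was 1 of 4. Mmp14, the transmembrane enzyme that activates pro-MMP-2, read 2.85, 2.62, 3.54 and 2.81 against 2.77, 2.66, 2.88 and 2.75. Only miR-126+/+ 3 stood apart, and the difference of -0.19 ± 0.19 became 0.0025 ± 0.099 without it. Mmp25, anchored by a lipid and known from leukocytes, read -3.19, -3.57, -1.76 and -3.22 against -3.24, -4.04, -3.22 and -3.24. The same mouse was highest, the groups overlapped, and the difference was -0.50 ± 0.39, or -0.11 ± 0.23 without it. Mmp17, the other lipid-anchored member, read 2.45, 2.27, 1.5 and 2.03 against 2.09, 1.59, 1.85 and 1.73. Here the third miR-126+/+ mouse was the lowest of all 8. The Mmp17 difference was -0.25 ± 0.21, and -0.43 ± 0.15 (adjusted p = 0.392) without that mouse. Mmp15, a transmembrane enzyme, read 0.01, 0.09, -1.05 and -0.52 against -0.11, -0.91, -0.66 and -0.77, again lowest in the third miR-126+/+ mouse, with a difference of -0.25 ± 0.28.

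Of the remaining MMPs, Mmp19, a soluble enzyme of basement membrane substrates, read 1.18, 1.06, 1.09 and 0.81 against 0.93, 0.74, 0.87 and 0.74. The miR-126+/+ mice were higher except replicate 4, and the difference was -0.21 ± 0.10 (adjusted p = 0.570). Mmp23 read 3.93, 3.46, 4.21 and 4.10 against 3.59, 4.11, 3.93 and 3.63, overlapping values that differed by -0.11 ± 0.19. Mmp27 differed by 0.23 ± 0.41.

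Of 6 tested proteoglycan-cleaving ADAMTS genes 5 were higher in miR-126-/- arteries, with a median difference of 0.16, and none passed. The count was 4 with normexp background correction and with the mean of each gene's probes, and 3 without the 2 arrays highest in skeletal muscle markers. It was also 4 without miR-126+/+ 1, 2 or 4 and without miR-126-/- 3, each left out singly. Adamts9, which cuts versican and aggrecan, read 0.78, 0.88, 1.07 and 0.85 in miR-126+/+ arteries and 1.30, 1.37, 1.33 and 1.56 in miR-126-/- arteries. Every miR-126-/- mouse was above every miR-126+/+ mouse, and the spread within each genotype was small. The means were 0.89 ± 0.13 and 1.39 ± 0.12 (SD, n = 4 each), a 1.41-fold difference. On the log2 scale it was 0.50 ± 0.10 (95% interval 0.26 to 0.73, adjusted p = 0.169 in limma), which did not pass. Its probe lies on chromosome 6, 92723051 to 92723110 (mm9). Without miR-126+/+ 3 the difference was 0.56 ± 0.095.

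The other aggrecanases did not separate the genotypes. Adamts1, a versican-cleaving enzyme of the vessel wall, read 3.31, 2.87, 4.08 and 3.5 against 3.73, 4.11, 3.25 and 3.41, overlapping values that differed by 0.19 ± 0.28. Adamts4, aggrecanase-1, read -0.39, 0.15, 1.48 and -0.22 against 0.41, 0.14, 0.25 and 0.41. The third miR-126+/+ mouse was well above all others while the remaining 3 lay near or below the lowest miR-126-/- value. The Adamts4 difference was 0.049 ± 0.38, and 0.46 ± 0.15 (adjusted p = 0.367) without that mouse. Adamts5, aggrecanase-2, read 0.24, 0.03, 0.69 and 0.10 against -0.07, -0.12, 0.55 and -0.09, highest in the third mouse of each genotype, with a difference of -0.20 ± 0.20. A second, dimmer Adamts5 probe gave 0.03 ± 0.22, of opposite sign. Adamts8 read -0.43, -0.59, -0.29 and -0.20 against -0.49, -0.43, -0.13 and 0.18, which overlapped and differed by 0.16 ± 0.17. A second, dimmer Adamts8 probe gave -0.28 ± 0.14, the mean of its probes -0.06, and the adipocyte covariate -0.10. Adamts15 differed by 0.16 ± 0.26.

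The procollagen N-propeptidases trim fibrillar procollagens so that fibrils can form. Adamts2 read 6.6, 6.21, 6.78 and 6.74 against 6.31, 6.65, 6.58 and 6.50, a difference of -0.07 ± 0.15. Adamts14 read 2.70, 2.12, 2.53 and 2.19 against 2.39, 2.42, 2.52 and 1.98, a difference of -0.06 ± 0.17. In both genes the genotypes overlapped.

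Among 8 other tested ADAMTS genes 2 were higher and 6 lower, from -0.46 to 0.05. Adamts18 was lower on average, at -3.19, -3.99, -3.88 and -3.82 against -4.10, -3.38, -4.64 and -4.59, with overlap and a difference of -0.46 ± 0.31. Adamts18 was above background on 4 miR-126+/+ and 2 miR-126-/- arrays. It entered only through the genotype where it read higher, so the filter favours this direction and the fall is a description. Adamts12, an enzyme that cuts cartilage oligomeric matrix protein, read -2.50, -2.70, -1.68 and -2.29 against -2.70, -2.44, -2.20 and -2.73, highest in the third miR-126+/+ mouse and overlapping, a difference of -0.22 ± 0.23. A second, dimmer Adamts12 probe was above background on 1 miR-126+/+ and 4 miR-126-/- arrays. It entered only through the genotype where it read higher, so its difference of 0.58 ± 0.33 is no check on the first probe. The differences were -0.33 for Adamts19, -0.26 for Adamts16, -0.14 for Adamts17, -0.06 for Adamts6, 0.02 for Adamts7 and 0.05 for Adamts10.

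ADAMTS-like proteins sit in fibrillin microfibrils. Adamtsl2, which binds fibrillin-1 and a latent TGF-beta binding protein, read -0.68, -1.19, -1.88 and -1.38 in miR-126+/+ arteries and -2.04, -2.86, -2.85 and -2.75 in miR-126-/- arteries. Every miR-126-/- mouse was below every miR-126+/+ mouse, though the first miR-126-/- mouse lay close to the third miR-126+/+ mouse. The means were -1.28 ± 0.50 and -2.62 ± 0.39 (SD, n = 4 each), so the signal was 2.53-fold lower in miR-126-/- arteries. The log2 difference of -1.34 ± 0.28 (95% interval -1.99 to -0.68, adjusted p = 0.181 in limma) was the largest of the 40 members and did not pass. Without miR-126+/+ 3 it was -1.54 ± 0.26. Adamtsl1 read 1.16, 0.63, 0.61 and 0.47 against 0.66, -0.06, 0.49 and -0.07, overlapping, with a difference of -0.46 ± 0.22 (adjusted p = 0.541). Adamtsl3, Adamtsl4 and Adamtsl5 differed by -0.12, 0.10 and 0.05.

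**Figure D4:**
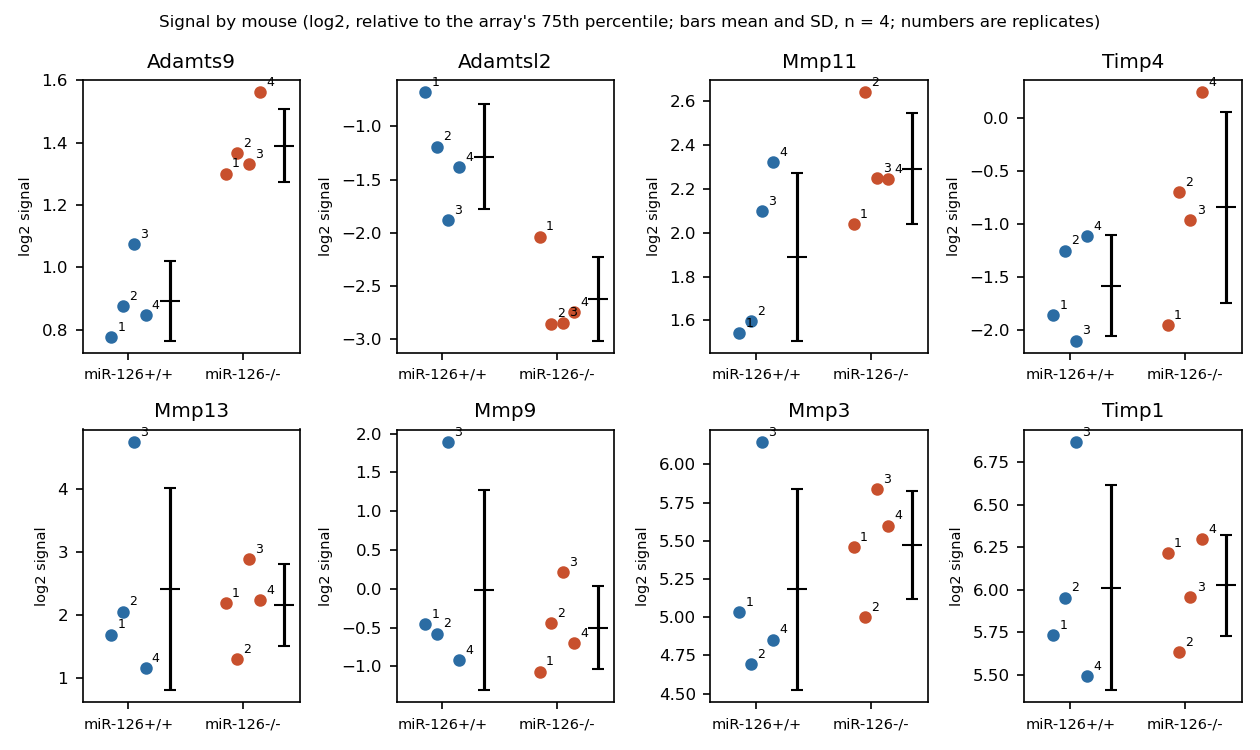
Log2 signal, scaled to the 75th percentile of the array, of 8 members in each mouse (points, numbered by replicate; bars are mean and SD, n = 4). Adamts9 and Adamtsl2 separate the genotypes, and in Mmp13, Mmp9, Mmp3 and Timp1 the highest point is miR-126+/+ 3.

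Adamtsl2 and Egfl7 are near neighbours. The Adamtsl2 probe (chromosome 2, 26964005 to 26964064, mm9) lies 515.863 kb from the Egfl7 probe (26448142 to 26448201), on the chromosome that carries the targeted miR-126 locus. Within 1000000 bases on either side of the Egfl7 probe, a window chosen after the values were seen, 61 other genes were tested. Of these 5 had genotypes that did not overlap (8.2%, beside 6.29% of all genes), and all 5 were higher in miR-126-/- arteries, opposite to Adamtsl2. They were Lhx3 (2.22), Card9 (2.18, adjusted p = 0.0207 in limma), a transcript beside Egfl7 (0.90), Egfl7 itself (0.49) and Dnlz (0.33), and of these Card9 passed the threshold. The share of 8.2% thus counts Egfl7, on which the window is centred, and the transcript beside it. In the window 26 other genes were lower, the lowest at -1.02. Adamts13, the von Willebrand factor protease, also belongs to this region and was not tested. The mice were of mixed background, and whether strain sequence near the locus differs between the genotypes was not tested.

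**Figure D5:**
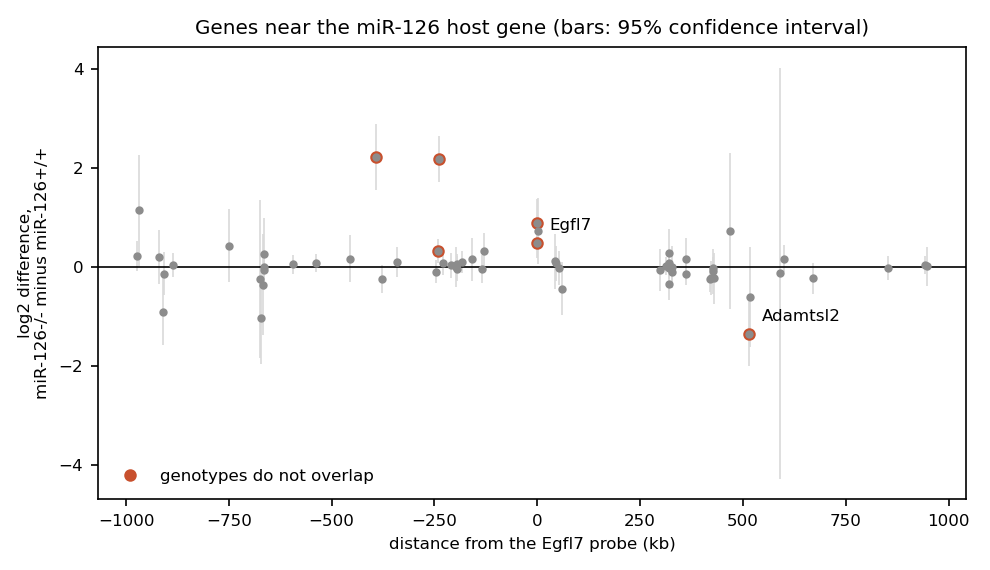
Log2 difference, miR-126-/- minus miR-126+/+, of the 62 tested genes within 1000000 bases of the Egfl7 probe against distance from it in kb, with 95% confidence intervals from limma (4 mice per genotype). Orange marks genes whose genotypes do not overlap, and Adamtsl2, at 515.863 kb, has the lowest value in the window.

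TIMPs inhibit the enzymes above. Timp1, the inducible inhibitor, read 5.73, 5.95, 6.87 and 5.49 in miR-126+/+ arteries and 6.21, 5.63, 5.95 and 6.30 in miR-126-/- arteries. The third miR-126+/+ mouse, which was highest for Mmp13 and Mmp9, was also highest for this inhibitor. The groups overlapped and differed by 0.01 ± 0.30, or by 0.30 ± 0.19 without that mouse. Timp2, which also takes part in pro-MMP-2 activation by MMP-14, read 8.18, 7.84, 8.45 and 8.06 against 7.89, 8.25, 8.17 and 8.08, a difference of -0.04 ± 0.15. Timp3, the matrix-bound inhibitor that also acts on ADAMTS enzymes, read 5.65, 5.68, 5.65 and 5.97 against 5.65, 5.92, 5.44 and 6.04, a difference of 0.03 ± 0.15. The 95% intervals were -0.37 to 0.30 for Timp2 and -0.32 to 0.38 for Timp3.

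Timp4, an inhibitor known from heart and fat, read -1.86, -1.25, -2.10 and -1.11 against -1.95, -0.70, -0.96 and 0.24. Mouse miR-126-/- 4 was highest, but miR-126-/- 1 was lower than 3 miR-126+/+ mice, and the difference of 0.74 ± 0.45 did not pass (adjusted p = 0.664). It was 0.38 without miR-126-/- 4, 1.10 without miR-126-/- 1 and 1.21 ± 0.40 (adjusted p = 0.457 in limma) without the 2 arrays highest in skeletal muscle markers. Of the adipocyte markers 10 of 10 were higher in miR-126-/- arteries. Their mean was highest in mouse miR-126-/- 4 at 1.03 and lowest in the third miR-126+/+ mouse at -1.13. Their summed signal, in multiples of the array's 75th percentile, ran from 255 to 537 in miR-126+/+ and from 481 to 899 in miR-126-/- arteries, and none of the 10 was undetected. With the adipocyte mean as a covariate the Timp4 difference was -0.54 ± 0.44 (adjusted p = 0.9997 in limma), of opposite sign. That mean was itself mostly higher in miR-126-/- mice, at 0.06 to 1.03 against -1.13 to 0.25. Fat content and genotype therefore cannot be told apart in this fit, and the part of fat in the Timp4 values was not tested.

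Other tissue markers also differed between arrays. Endothelial markers, Egfl7 among them, were higher in 8 of 8 genes. Their sums of 85.9 to 109 in miR-126+/+ and 118 to 151 in miR-126-/- arteries did not overlap. Sums weigh bright genes most, and Egfl7 itself read 5.8 to 6.1 against 6.3 to 6.7 on the log2 scale. The means of the endothelial markers, each gene centred, did overlap, at -0.29 to -0.03 against -0.06 to 0.29. T and B lymphocyte markers were higher in 7 of 7 tested genes (8 listed), by 0.82 on average. Their sums of 7.31 to 12.0 and 13.5 to 32.4 did not overlap either, but their means did, at -0.63 to 0.07 and -0.21 to 1.16. Smooth muscle markers were higher in 7 of 8 genes, with overlapping sums of 380 to 448 and 360 to 587. Fibroblast and adventitia markers were higher in 5 of 8 genes, yet their sums were lower in miR-126-/- arteries. These sums of 744 to 1008 and 633 to 712 did not overlap, while the means of -0.14 to 0.24 and -0.09 to 0.03 did. The bright gene Dcn is among these 8 markers and read 7.99 to 8.65 against 7.19 to 7.91 on the log2 scale. Skeletal muscle markers (9 of 10 tested) were high on miR-126+/+ 2 and miR-126-/- 1, at means of 2.81 and 2.79, and array miR-126+/+ 2 held the lowest value of 15 of 40 members, beside 19.5% of all genes. With the adipocyte mean as a covariate Adamts9 differed by 0.47 ± 0.17 and Adamtsl2 by -1.06 ± 0.46. Without the 2 arrays highest in skeletal muscle markers they differed by 0.52 ± 0.13 and -1.5 ± 0.30. With the adipocyte covariate 19 of the 40 members changed sign, for example Adamtsl1 from -0.46 to 0.02, Mmp19 from -0.21 to 0.04 and Mmp25 from -0.50 to 0.09. Mmp11 went from 0.40 to 0.09 and kept its sign. The share of all genes that changed sign is not given here, so the count cannot be read as particular to these families. The part of endothelial, lymphocyte, fibroblast and fat RNA in these values was not tested.

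The Mmp cluster on chromosome 9 holds 10 members over 414.938 kb (7282762 to 7697700, mm9), of which 6 were tested. Mmp13, Mmp12, Mmp3, Mmp10 and Mmp8 lie in this order along it, then Mmp27. Of these 6, Mmp13, Mmp3, Mmp10 and Mmp8 were highest in the third miR-126+/+ mouse, and Mmp12 and Mmp27 were not. Of the 4 genes with the printed motif, Mmp13, Mmp3 and Mmp10 were highest there and Mmp12 was not. Of the 17 members highest on that array 11 had a promoter to search. The motif was in 3 of these 11 and not in the other 8, namely Mmp25, Mmp8, Mmp14, Timp1, Adamts12, Timp2, Mmp23 and Adamts2. Mmp9 and Adamts4 are not among the 11. The neighbours had their genotypes overlapping in every case.

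Genes that activate, inhibit or clear these enzymes were taken from a list of 30, of which 26 were tested. In miR-126-/- arteries 8 of these were higher and 18 lower, at a median of -0.07, and 0 of 26 passed in limma, with 2 at an unadjusted p under 0.05 (beside 10.2% of all genes) and the same 2 without overlap (beside 6.29%), shares near those of all genes. Pcsk6, a proprotein convertase that can cut proenzymes, read 2.18, 1.74, 1.84 and 2.18 against 2.35, 2.78, 3.38 and 2.59. All miR-126-/- mice were higher, by 0.79 ± 0.23 (adjusted p = 0.277). Adam12, a membrane disintegrin protease, read -1.99, -2.21, -1.70 and -1.78 against -1.57, -1.52, -1.48 and -1.45, again with no overlap and a difference of 0.41 ± 0.12 (adjusted p = 0.294). Adam17, the TNF-alpha converting enzyme, gave 0.13 ± 0.17. On the lower side Tfpi2, a protease inhibitor, gave -0.43 ± 0.19, Bsg, the MMP inducer basigin, gave -0.21 ± 0.13, and Ctsk, the collagen-cutting cathepsin K, gave -0.32 ± 0.20.

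Substrates of the families were taken from a list of 24, of which 23 were tested, 12 higher and 11 lower. Their median difference was 0.03. In limma 0 of 23 passed, and 3 had an unadjusted p under 0.05 (beside 10.2% of all genes), while 2 were without overlap (beside 6.29%), again near the shares of all genes. Dcn, the small proteoglycan decorin, read 7.99, 8.2, 8.65 and 8.54 against 7.91, 7.46, 7.19 and 7.49. All miR-126-/- mice were lower, with a difference of -0.83 ± 0.20 (adjusted p = 0.215). Dcn is also among the fibroblast and adventitia markers above, so its fall and that of their sums are not separate observations. Fn1, fibronectin, read 8.19, 7.98, 8.37 and 7.56 against 7.74, 6.88, 7.81 and 6.6, with overlap and a difference of -0.77 ± 0.31. Col3a1, the type III collagen chain, read 8.13, 7.56, 8.03 and 7.73 against 8.14, 8.32, 8.17 and 8.17, all higher in miR-126-/- mice though by a narrow gap, a difference of 0.34 ± 0.14 (adjusted p = 0.460). Acan, Col4a1 and Vcan, the proteoglycan aggrecan, a basement membrane collagen and the proteoglycan versican, gave 0.43 ± 0.22, 0.24 ± 0.14 and -0.24 ± 0.28. The 2 substrates without overlap went in opposite directions.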

How the data were processed

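RNA of 8 injured carotid arteries was hybridised, 100 ng per mouse, to Agilent arrays. Per the file headers, Agilent Feature Extraction 10.7.3.1 made the scanner files. The processed signals used, per the file headers, are linear intensity values after background subtraction. Intensity values in the deposited table were the same for most probes, with a median log2 difference of 0 on each array. On each array 99.85% to 99.95% of probes lay within 0.1 log2 units, and the rest differed by more. How the arrays were scaled by the authors is not given in the sources used here.

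Control spots and 146 to 216 outlier spots per array were dropped, and repeated spots averaged. Log2 signals were taken relative to each array's 75th percentile, which scales away differences in overall brightness. A probe entered when well above background on 3 or more arrays of a genotype, and the brightest probe stood for its gene, so splice forms are not resolved. Symbols came from RefSeq accessions (GRCm38.p6, names only) for 26413 probes (47.4%). Probe positions are on mm9, per the file headers. The genotype test was that of limma 3.58.1 (eBayes after lmFit, without covariates, leaving 6 residual degrees of freedom), run in R 4.3.3. Files were read and figures drawn in Python 3.11.15 (matplotlib 3.10.9, numpy 2.4.6, pandas 2.3.3). The fit was tested on simulated data. The number of arrays, 4 per genotype, limits the precision.

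The members, roles, lists, tests and the motif were chosen with earlier results of these data known. Values in every mouse were given for the TIMPs, Mmp2, Mmp3, Mmp9, Mmp12, Mmp13, Mmp14, Adamts1, Adamts4, Adamts5 and Adamts9, for the 10 other tested members with the smallest p and for up to 2 members of each role with the smallest p. In each direction the 3 genes with the smallest p were named from each of the lists of activators, inhibitors and clearance and of substrates. Second probes of a named member were given where they differed by over 0.5 log2 units, or in sign with a p under 0.05. Those of Mmp11, Mmp12, Adamts5 and Adamts8 did not meet this rule and were given in addition. The alternatives were normexp background correction (offset 50), other scalings, the deposited table, array weights, other dim-probe filters, averaging over a gene's probes, the replicate number as a block, an intensity trend, marker means as covariates and each array left out. Leaving out the dim area, leaving out the 2 arrays highest in skeletal muscle markers, and the quantile margins on miR-126+/+ 3 were added after seeing the data.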

Additional observations from a re-analysis of the deposited data

Results flagged for a closer look

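The 80 groups of 4 mice (40 members in each genotype) were searched for a mouse far from the other 3, and 6 groups held one. Chance alone flags about 1 group in 20. Mmp9 read 1.89 on miR-126+/+ 3 and -0.92 to -0.46 on the other miR-126+/+ arrays. Mmp25 read -4.04 on miR-126-/- 2 against -3.24 to -3.22. Adamts5 read 0.55 on miR-126-/- 3 against -0.12 to -0.07. Adamts10 read 0.31 on miR-126-/- 2 against -0.22 to -0.15. Adamtsl2 read -2.04 on miR-126-/- 1 against -2.86 to -2.75, so this mouse lay nearest to the miR-126+/+ values. Timp3 read 5.97 on miR-126+/+ 4 against 5.65 to 5.68.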

How the results depend on the processing

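The count of members past the threshold was 0 under every one of the 22 alternatives, and so was the count of pathway genes. The members' median difference ran from -0.18, without the 2 arrays highest in skeletal muscle markers, to 0.04, with the adipocyte covariate. Adamts9 ran from 0.42 to 0.56, with an unadjusted p under 0.05 in 22 of 22 alternatives, and Adamtsl2 from -1.60 to -1.01, in 21 of 22, the exception being the adipocyte covariate. Their adjusted p ran from 0.0692 to 0.9997. Of 28 named members, 11 never changed sign, and 52 of 615 values changed sign, none of them past the threshold. The cause of these changes was not tested. Adamts18 is among the 11 that never changed sign, but it entered only through miR-126+/+ arrays, where it read higher.

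The count over all genes, 23 in the main setting, was 11 with quantile normalization, 12 with the deposited table, 9 with no filter on dim probes, 6 with genes above background on all 8 arrays, 10 with the mean of a gene's probes, 73 with array weights and 7 with the skeletal muscle covariate. In limma it was 0 with the adipocyte covariate (where 1069 genes had an unadjusted p under 0.05), and also 0 without the 2 arrays highest in skeletal muscle markers (2047 such genes). With the replicate block it was 0 (2196 such genes). Same-numbered mice deviated together at correlations of -0.28 to 0.20, so the numbers do not pair them. Leaving out 1 array gave 0 to 59 genes: 6, 3, 11 and 59 without miR-126+/+ 1, 2, 3 and 4, and 5, 0 (1900 such genes), 4 and 15 without miR-126-/- 1, 2, 3 and 4. It was 24 to 28 with normexp correction, the percentile over detected probes, an intensity trend or without the dim area. Probes near background limit what Mmp10, Adamts18 and Adamts19 can show.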

Other observations

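Array miR-126+/+ 3, where Mmp13, Mmp9, Mmp25 and Adamts4 were highest, held the highest value of 29.2% of all genes. The 6 genes below are among them, were chosen one by one after their values were seen, and show nothing about any group of genes. Il6, an acute inflammatory cytokine, read 3.44 there and -0.89 to 1.29 on the other 7 arrays. Cxcl1, a neutrophil-attracting chemokine, read 3.34, against 0.69 to 2.08 elsewhere. Il1b read 5.15 against 3.26 to 4.27, Ptgs2, the inducible cyclooxygenase, 1.66 against 0.04 to 0.75, and Tnfsf11, the cytokine RANKL, 0.78 against -2.96 to -1.74. Hif1a, the hypoxia-responsive transcription factor subunit, read 3.38 against 2.01 to 2.47. None of these genes differed between genotypes past the threshold in limma (adjusted p of 0.74 to 0.98).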
